A study of Mus musculus with 24 samples.

Results

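The response of NFIA-expressing C2C12 cells to forskolin on day 7 of culture was read from 6 RNA-seq libraries out of the 24 in the series. Of these, 3 came from day 7 cells treated with forskolin at 10 µM for 4 h and 3 from day 7 cells without it. C2C12 is an established mouse myoblast line. NFIA is nuclear factor I A, a DNA-binding transcription factor, and all 6 libraries come from C2C12 cells made to express it, so the untreated cells carry it too. The same treatment of control C2C12 cells at the same day (3 treated and 3 untreated libraries) served as the comparison. The vector and promoter that drive NFIA, the culture medium and the number of independent lines are not described by the labels. The replicates are labelled as separate libraries without a statement of separate cultures, so the p-values measure the spread between these libraries, which may be technical. Values are FPKM (fragments per kilobase of transcript, scaled to the mapped fragments of each library). A gene was tested where FPKM was at least 1 in at least 3 of the 6 libraries, which held for 12942 of 37041 genes. A gene under 1 FPKM in every library of 1 group could pass only through the other group. For such a gene the filter fixed the direction of any call. Differences are on the log2(FPKM + 1) scale, treated minus untreated, so they understate the change of low genes, and a gene was called at a limma adjusted p (Benjamini-Hochberg, two-sided, over all genes tested) under 0.05.

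Forskolin is a plant diterpene that activates adenylyl cyclase directly and so raises cyclic AMP without a hormone or receptor. Cyclic AMP activates protein kinase A, which phosphorylates CREB and its relatives; these bind the cyclic AMP response element (CRE), a palindrome in which TGACG overlaps its reverse complement, and the CRTC coactivators join them once the SIK kinases are inhibited. In brown adipocytes this is the route by which noradrenaline switches on lipolysis and the thermogenic genes, among them Ucp1, Dio2 and Ppargc1a, while phosphodiesterases, RGS proteins, CREM repressor forms and dual-specificity phosphatases limit the signal.

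The full CRE palindrome occurred in the proximal promoters of several genes that rose most in the NFIA cells. The 6 windows printed here are those of key or list genes called in the NFIA response with a palindrome and the largest differences. They come from RefSeq (mouse build GRCm38.p6), with the palindrome in capitals, 40 bases on either side and each gene's own strand read 5′ to 3′.
Btg2: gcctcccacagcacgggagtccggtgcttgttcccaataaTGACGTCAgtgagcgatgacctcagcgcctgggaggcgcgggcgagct
Dio2: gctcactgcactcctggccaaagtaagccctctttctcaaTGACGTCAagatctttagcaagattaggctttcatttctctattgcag
Maff: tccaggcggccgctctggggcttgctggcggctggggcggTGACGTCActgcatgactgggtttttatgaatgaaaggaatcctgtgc
Dusp1: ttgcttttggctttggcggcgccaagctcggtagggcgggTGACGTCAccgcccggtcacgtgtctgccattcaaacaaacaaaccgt
Errfi1: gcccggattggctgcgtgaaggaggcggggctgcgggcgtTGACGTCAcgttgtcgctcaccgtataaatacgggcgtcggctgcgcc
Areg: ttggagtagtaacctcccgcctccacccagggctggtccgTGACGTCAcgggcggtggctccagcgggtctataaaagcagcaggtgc
The printed window of Btg2, an antiproliferative early gene that rose by 3.05, spans chr1:134079274-134079361 on the minus strand, and its palindrome begins 166 bases before the start. That of Dio2, the deiodinase that activates thyroid hormone, which rose by 3.03, spans chr12:90739086-90739173 (minus strand), and its palindrome begins 95 bases before the start. Maff, a small MAF factor, rose by 3.02; its window spans chr15:79347451-79347538 (plus strand) with the palindrome from 29 bases before the start. The windows of the MAP kinase phosphatase Dusp1 (chr17:26508568-26508655, minus strand) and of Errfi1, an inhibitor of the EGF receptor (chr4:150854979-150855066, plus strand), have palindromes that begin 143 and 51 bases before the start, and these genes rose by 2.92 and 2.73. Areg, which encodes the EGF receptor ligand amphiregulin, rose by 2.61; its window spans chr5:91139498-91139585 (plus strand), and the palindrome begins 61 bases before the start. Not every called gene with a palindrome rose: Pnpla3, a triglyceride lipase-like protein, also has one and fell by 1.60.

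Promoter windows of 300 bases (250 before to 50 after the start) were matched for 8970 of the 12942 tested genes, and a gene was counted where any of its windows held the motif. TGACGTCA was present for 3.84% of these genes, for 6.32% of the 1203 called higher, for 2.33% of the 1332 called lower and for 3.68% of the 6435 not called. Its share was 8.63% among the 336 genes called higher by at least 2-fold and 15.1%, or 13 genes, among the 86 called higher by at least 4-fold. Over all 32851 single windows of this length in the table it was 1.79%, and counted by gene it was 2.03% of 27025 genes. The shorter motif TGACG on either strand, which every palindrome contains, was found for 47.3% of the genes called higher. It was found for 32.7% of those called lower, 35.8% of those not called and 36.8% of all tested genes. Over all promoters it was in 20.8% of single windows and, counted by gene, in 23% of genes. Its share did not follow the size of the rise, with 49.1% of the 867 genes called higher by under 2-fold, 42.6% of those at 2-fold or more and 59.3% of those at 4-fold or more. Of the 47 genes with a promoter called higher in both cell kinds, 1 (2.13%) held the palindrome, against 3.84% of all tested genes. A count of 1 is too small to set these shares apart. TGACG was found for 42.6% of the 47, against 36.8% of all tested genes. Among the members that rose most, the windows of Nr4a1, Nr4a2, Nr4a3, Fos, Atf3, Ppargc1a, Pde4b and Ucp1 held TGACG without the palindrome, and those of Irs2, Hspa1b and Zfp36 held neither. These matches describe letters in a window and measure no binding.

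**Figure D1:**
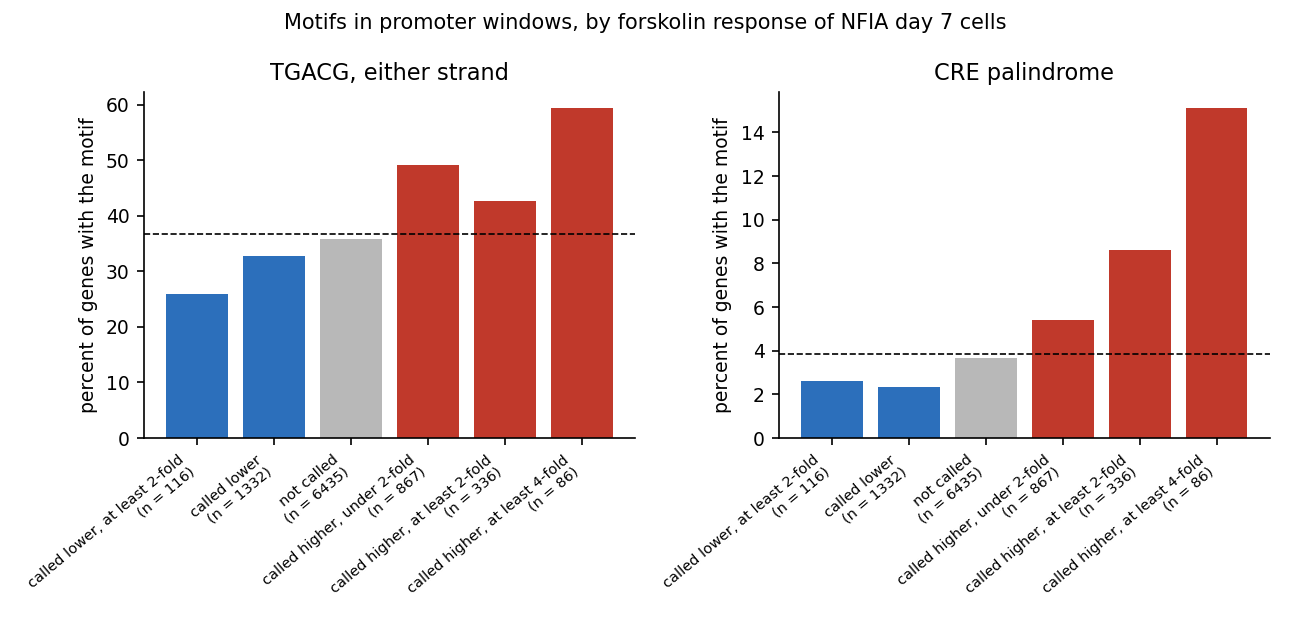
Share of genes (percent, y axes, which differ in scale) whose 300-base promoter window holds TGACG on either strand or the palindrome TGACGTCA, for genes grouped by their response to forskolin in the NFIA cells (x axes); the dashed line is the share over all tested genes. The palindrome share goes from 2.33% of genes called lower to 15.1% of genes called higher by at least 4-fold.

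The 6 libraries had FPKM sums of 941965 to 1575522 over 17370 to 19872 genes above 0, and their read depth is not known from these values. The titles of replicates 2 and 3 give their number. The library of each group without a number in its title was taken as replicate 1. In the table headers, replicate 1 of each group carries the year 2015 and replicates 2 and 3 the year 2016. Treated replicate 1 also lacked a header mark that the other 5 tables have, and its value for mmu-mir-703 was 29084.7 against 166639 to 393312 in the other 5. Forskolin separated the groups along the first principal component (52.2% of the variance), and replicate 1 stood apart from 2 and 3 along the second (27.0%). In NFIA cells the deviations of same-numbered treated and untreated libraries from their group means correlated at 0.53, 0.18 and 0.34. Those of the differently numbered replicates 2 and 3 correlated at 0.23 and 0.20, and those of replicate 1 with replicates 2 and 3 at -0.42 to -0.29. Untreated cells held both muscle and adipocyte transcripts, with means of 150 FPKM for Myog and 22388 for Fabp4.

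Forskolin changed 3578 of 12942 tested genes (27.6%) in the NFIA cells, with 1822 higher (14.1%) and 1756 lower (13.6%), and every called gene had treated and untreated values that did not overlap, as had 44.3% of all tested genes. The 2 directions were near balance by number but not by size. By at least 2-fold, 491 genes rose (3.79%) and 158 fell (1.22%), by at least 4-fold 142 rose and 7 fell, and by at least 8-fold 49 rose and 2 fell. The median over all genes tested was -0.02. The shares of 14.1% higher and 13.6% lower are the base beside which each list count below is to be read. With the replicate number as a block, 5494 genes were called. Leaving out untreated replicate 3 left 1824 calls and leaving out untreated replicate 2 left 1861. Of 210 called genes among those named by rule, 172 kept their call in each alternative that tested them other than a 2-fold minimum. Those genes were chosen partly for their large differences in these data, so their count does not describe all calls. Over all 3578 calls, 1804 were kept without untreated replicate 3. The summed FPKM of protein-coding genes was 551824 to 681370 untreated and 613753 to 823719 treated, and its part in the values was not tested. In bulk RNA, a change in the number of responding cells and a change in RNA per cell cannot be told apart.

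**Figure D2:**
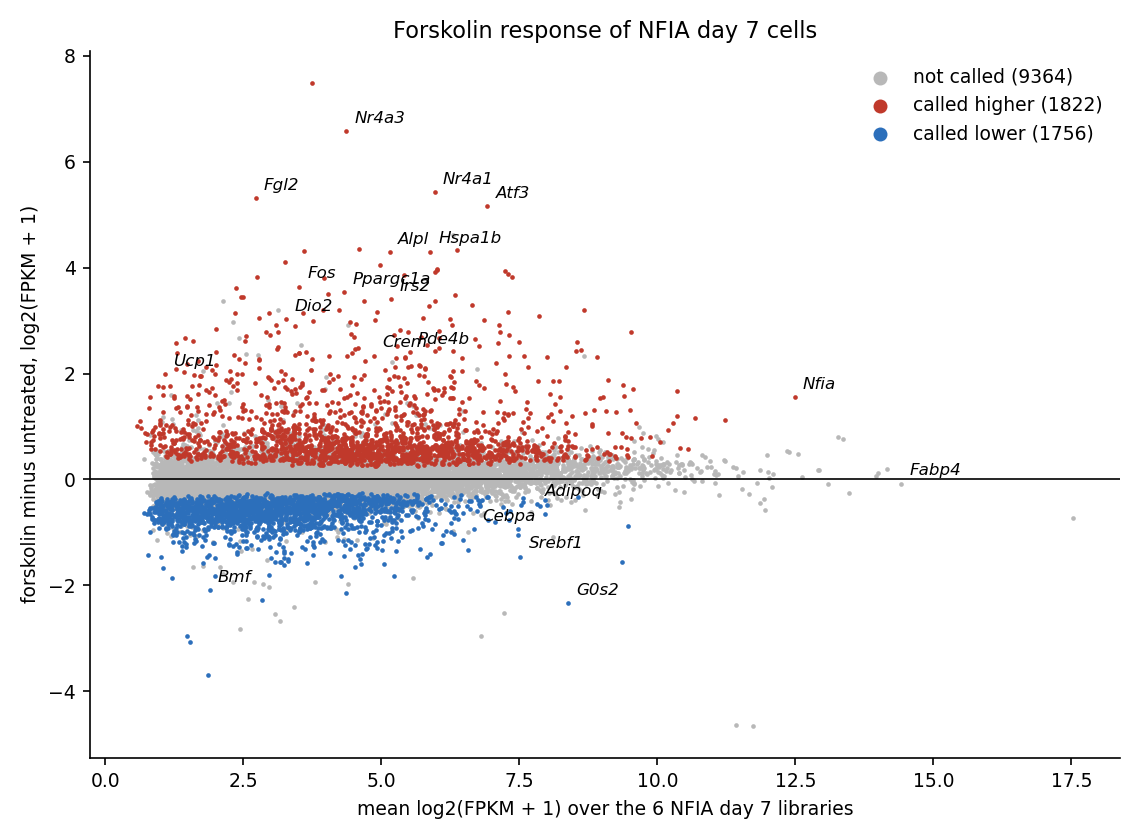
Response to forskolin in the NFIA cells (y axis, log2(FPKM + 1), treated minus untreated) against mean level (x axis, log2(FPKM + 1)) for 12942 genes, with genes called higher or lower coloured. The 142 genes that rose by at least 4-fold outnumber the 7 that fell by as much.

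The NR4A nuclear receptors, orphan receptors that act as early cyclic AMP targets, all rose (3 of 3). Nr4a3 had 1.22, 1.24 and 0.85 FPKM in untreated replicates 1 to 3 and 217.68, 176.65 and 204.42 in the treated ones. Every untreated library was at the low end of the tested range and every treated one far above it, a log2 difference of 6.58 ± 0.12 (SE, n = 3 per group, limma adjusted p = 4.5e-06). Nr4a1 went from 6.58, 10.02 and 9.27 to 345.66, 433.03 and 458.30, a difference of 5.43 ± 0.18 (limma adjusted p = 3.1e-05). Nr4a2 went from 1.10, 1.44 and 1.37 to 43.00, 30.16 and 44.08, a difference of 4.10 ± 0.16 (limma adjusted p = 4.0e-05). In the control cells the same treatment raised Nr4a1 by 1.04 and Nr4a2 by 1.50, and Nr4a3, at a mean of 0.297 untreated and 0.98 treated, was not tested there. The NFIA response was larger than the control response by 4.40 for Nr4a1 and 2.61 for Nr4a2 (limma interaction, both called).

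Immediate early transcription factors, which cells switch on without new protein synthesis, mostly rose. Of 29 tested members 23 were called higher and 0 lower, with a median of 1.95, against 27.6% called and a median of -0.02 over all genes. The count was 23 with each library left out in turn. Atf3, a stress-induced bZIP repressor, had 21.20, 19.07 and 17.64 FPKM untreated and 673.73, 710.90 and 784.88 treated, with no overlap, a difference of 5.16 ± 0.11 (limma adjusted p = 6.5e-06). Fos, the AP-1 subunit, went from 1.75, 2.68 and 2.34 to 32.44, 45.81 and 40.44 (difference 3.64 ± 0.17, limma adjusted p = 5.3e-05). Its relative Fosl1 rose by 3.37 from a mean of 7.03, and Jun and Junb rose by 2.57 and 2.70. The mRNA-destabilising protein Zfp36 went from 15.25, 20.19 and 20.56 to 159.40, 220.75 and 230.51, a difference of 3.37. Btg2 and Maff went from means of 17.9 and 9.46 to 155 and 84.3. Egr1, a zinc finger early gene, had 17.07, 19.11 and 19.03 untreated against 85.97, 96.95 and 101.33 treated, a rise of 2.30, and Myc rose by 1.96. Egr2 gave 0.79 (limma adjusted p = 0.079, and a call with the replicate block), and Jund, Srf, Klf2 and Hes1 were not called. In the control cells 2 of 29 members were called higher and 5 lower, with a median of -0.11. The difference between the 2 responses was called for 24 of 30 members tested, each toward the NFIA cells.

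**Figure D3:**
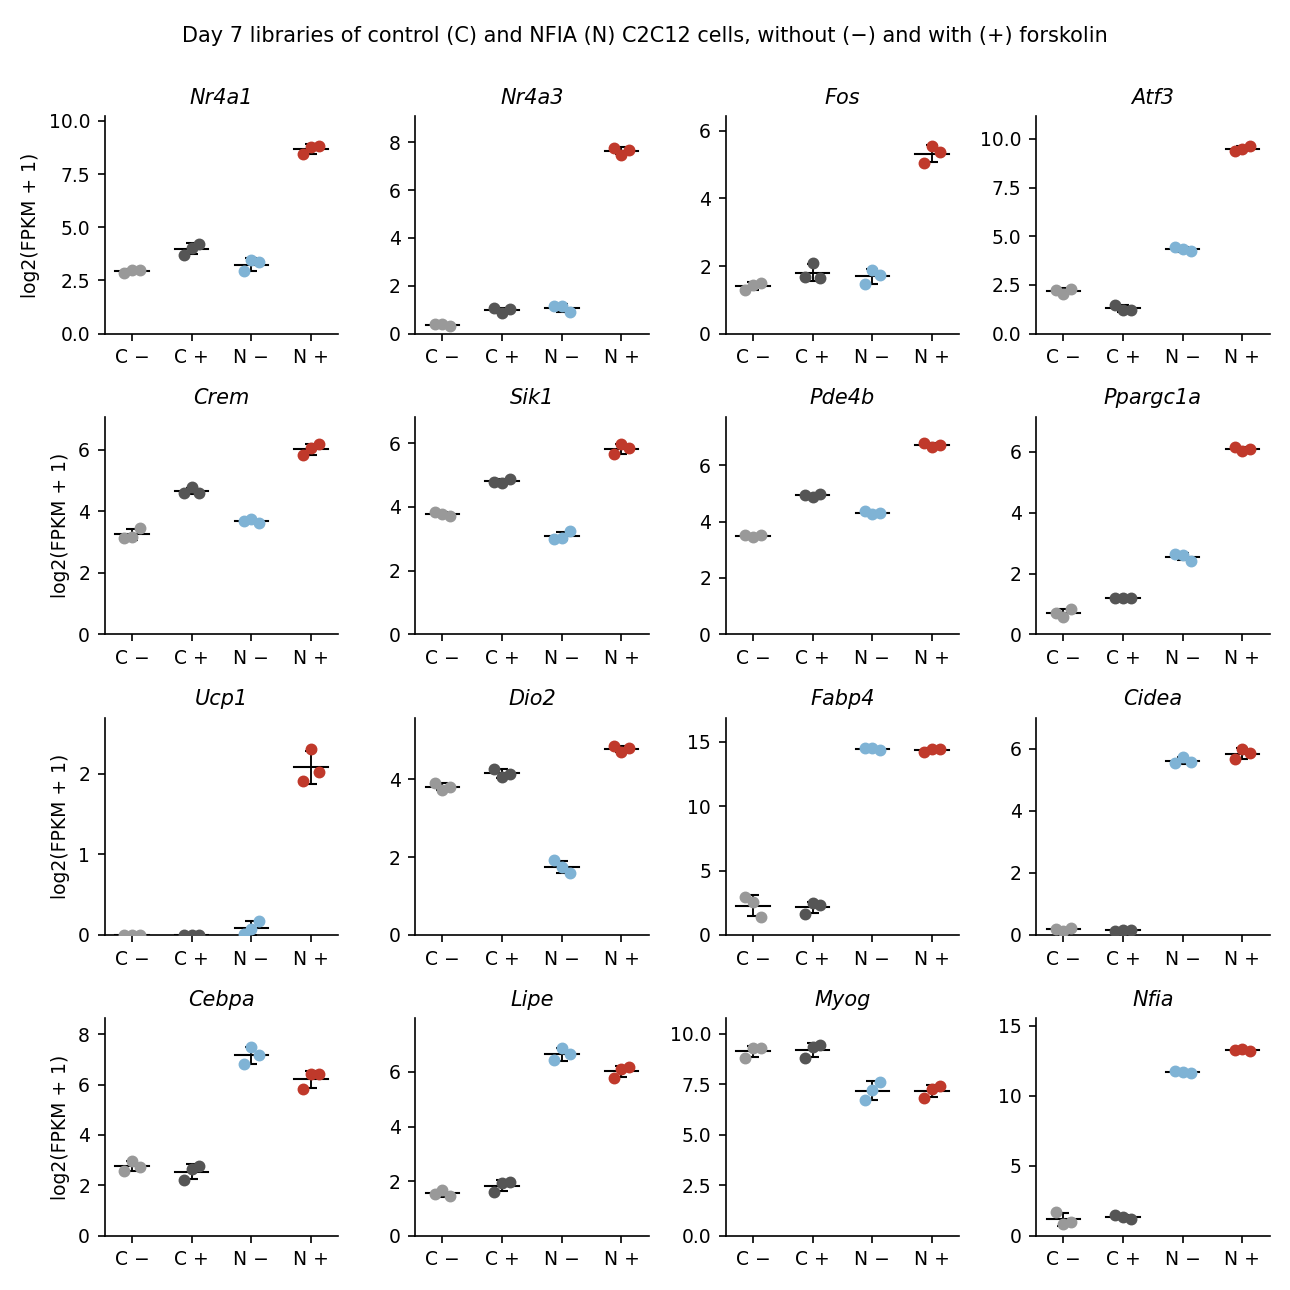
Level in log2(FPKM + 1) (y axes) of 16 genes in each day 7 library of the control (C) and NFIA (N) cells, without (−) and with (+) forskolin (x axes); points are libraries, long bars group means and error bars the SD (n = 3). In the NFIA cells Nr4a3 rises from a mean of 1.10 FPKM to 200 FPKM, while Fabp4 and Myog stay level.

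Several genes that restrain cyclic AMP signalling rose, while most protein kinase A genes did not pass the test. Sik1, the kinase that holds CRTC coactivators in the cytoplasm, went from 7.02, 7.16 and 8.41 FPKM to 49.28, 61.48 and 56.94, with no overlap (difference 2.74 ± 0.12, limma adjusted p = 4.6e-05). Crem, whose internal promoter makes the repressor ICER, went from 11.96, 12.58 and 11.28 to 56.01, 65.71 and 72.02 (difference 2.34 ± 0.11, limma adjusted p = 6.8e-05). The gene-level FPKM does not separate ICER from the other forms. In the list of CREB family, CRTC and SIK genes 5 of 15 were higher (33.3%) and 2 lower (13.3%), with a median of 0.16. The 2 that fell were Crtc3 (-0.61) and the coactivator Ep300 (-0.44), and neither call held without untreated or treated replicate 2 or 3. The higher count was 3 without any single library other than untreated replicate 1.

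Of 10 phosphodiesterases, which degrade cyclic nucleotides, 5 were called higher (50%) and 0 lower, with a median of 0.67. Pde4b had 19.62, 18.15 and 18.64 FPKM untreated and 108.43, 100.11 and 104.44 treated, a difference of 2.41 ± 0.08 (limma adjusted p = 3.1e-05). Pde4d rose by 2.70, Pde10a by 1.87, Pde3b by 1.24 and Pde7b by 0.96. Pde3b, the form that insulin activates in adipocytes, rose in the control cells by 1.02, and its 2 responses differed by 0.22 ± 0.23 (SE), which was not called. The G protein regulator Rgs2 rose by 1.25 in the NFIA cells and by 0.80 in the control cells. Of 12 protein kinase A subunits, inhibitors and anchors, Prkar1a (0.65) and Akap13 (1.08) rose and none fell, with a list median of 0.00. Their share of 16.7% is near the 14.1% higher among all tested genes. Prkar1a, the regulatory subunit that holds the kinase inactive, has a CRE palindrome in its promoter windows.

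Of 14 adenylyl cyclase, G protein, receptor and RGS genes, 4 were called higher (28.6%) and 3 lower (21.4%), with a median of -0.02. The lower count was 0 without untreated replicate 2 or 3. Adrb3, the main beta receptor of mature brown fat, was at means of 0.353 and 0.17 FPKM and was not tested.

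MAP kinase phosphatases and Sprouty genes, which damp ERK signalling, had 8 of 17 members higher (47.1%) and 2 lower (11.8%), with a median of 0.46. Over all tested genes 14.1% were higher and 13.6% lower. Spry1, Spry2, Spred1 and Spred2 were not called. Errfi1 had 59.07, 59.81 and 62.74 FPKM untreated and 410.10, 408.05 and 404.46 treated (2.73 ± 0.08, limma adjusted p = 2.6e-05). Dusp4 rose by 3.04, Dusp1 by 2.92, Dusp5 by 1.51 and Dusp10 by 1.45. Dusp1 had 22.33, 31.37 and 28.50 untreated and 165.89, 237.10 and 240.00 treated. Dusp7 fell by 1.24 and Dusp18 by 0.74.

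Among thermogenic genes a few rose steeply, and 8 of the 16 tested were not called. Of 16 tested brown adipocyte genes 6 were called higher (37.5%) and 2 lower (12.5%), with a median of 0.13. Over all tested genes 14.1% were higher and 13.6% lower. In control cells limma called 0 of 12 (unadjusted p under 0.05 for 3). Ppargc1a, the coactivator of mitochondrial biogenesis, had 5.27, 5.07 and 4.34 FPKM untreated and 70.30, 65.08 and 66.81 treated, with no overlap (3.54 ± 0.09, limma adjusted p = 1.9e-05). Dio2 went from 2.78, 2.34 and 2.04 to 27.92, 25.04 and 27.00 (3.03 ± 0.11, limma adjusted p = 3.6e-05). Untreated control cells already held Dio2 at a mean of 13.1, above the untreated NFIA cells, and reached 16.8 with forskolin. Ucp1, the uncoupling protein of brown fat, was at 0.01, 0.05 and 0.13 untreated and 2.75, 3.95 and 3.06 treated (1.99 ± 0.13, limma adjusted p = 2.0e-04). It passed the filter only through the treated libraries, so its call could only be higher and adds no support beyond the values. Ucp1 was listed at 0 in all 6 control libraries. In the 3 wild-type brown fat libraries of the series, from separately made tables, Ucp1 was at 5355 ± 1667 FPKM (SD, n = 3). The hormone Fgf21 rose by 2.30, Clstn3 by 1.10 and Ppargc1b by 0.85, while Pank1 fell by 0.73 and Letmd1 by 0.36, the latter a call lost without any single library other than untreated replicate 1.

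Other brown fat markers were not called. Before treatment Cidea and Cox8b were at means of 48 and 365 FPKM, against 2120 and 3776 in the separately processed wild-type brown fat libraries. The lipid droplet protein gene Cidea had 45.02, 52.10 and 46.80 FPKM untreated and 49.47, 62.57 and 56.82 treated, with groups that overlapped (0.22 ± 0.12, limma adjusted p = 0.20). With the replicate block Cidea was called. Cox8b, a heart and brown fat form of a cytochrome oxidase subunit, had 221.71, 449.13 and 425.12 untreated and 214.18, 231.88 and 386.37 treated, and the spread within each group exceeded the difference. Elovl3, the fatty acid elongase, had means of 4.66 and 3.61. Of 50 nuclear-encoded oxidative phosphorylation genes limma called 0 higher and 0 lower, and 0 had an unadjusted p under 0.05, with a median of 0.07. Under quantile normalization 9 were lower, and with replicates 2 and 3 alone 6 were higher, so the direction of the calls in this list turned with the setting. In the list for mitochondrial biogenesis 6 of 20 were higher (30%) and 2 lower (10%), with a median of -0.08. Without untreated replicate 2, untreated replicate 3 or treated replicate 3 these counts were 3 and 0.

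General adipocyte genes moved in both directions. Of 24 tested, 4 were higher (16.7%) and 7 lower (29.2%), with a median of -0.35. The lower count was 13 with the replicate block, 14 under quantile normalization, and 0 to 3 without any single library other than untreated replicate 1. Fabp4, the adipocyte fatty acid carrier, stayed at very high levels, 22388 ± 1058 FPKM untreated and 21261 ± 1709 treated (SD, n = 3), a difference of -0.08 (limma adjusted p = 0.87). Dgat1, which catalyses the last step of triglyceride synthesis, had 147.55, 183.03 and 170.82 untreated and 815.14, 975.12 and 966.39 treated, with no overlap (2.45 ± 0.13, limma adjusted p = 1.0e-04). Lipoprotein lipase (Lpl) went from 1195.97, 1119.06 and 1005.53 to 2474.58, 2438.38 and 2496.50, a rise of 1.16, and the gluconeogenic and glyceroneogenic enzyme Pck1 rose by 1.73. Adiponectin (Adipoq) fell by 0.47 from 266 ± 31.2, a call that was lost without any single library other than untreated replicate 1. Its values did not overlap, with 237.65, 299.43 and 260.51 untreated and 171.82, 202.66 and 200.85 treated.

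Regulators of adipogenesis moved both ways, 4 higher (20%) and 7 lower (35%) of 20, with a median of -0.15. With the replicate block these counts were 7 and 8, and 4 were lower without untreated replicate 2, untreated replicate 3 or treated replicate 3. Stat5a, a cytokine-activated transcription factor, had 39.39, 44.39 and 42.10 FPKM untreated and 13.05, 12.73 and 13.86 treated, with no overlap (-1.59 ± 0.09, limma adjusted p = 9.9e-05). Its neighbour Stat5b fell by 1.19 and the PPARG partner Rxra by 0.98. Srebf1, the lipogenic regulator, went from 285.43, 317.87 and 304.74 to 100.99, 100.50 and 129.00 (-1.46 ± 0.13, limma adjusted p = 6.0e-04). Pparg itself rose slightly, from 51.99, 53.98 and 52.05 to 63.98, 67.02 and 65.40, a difference of 0.31 (limma adjusted p = 0.027) whose call was lost without any single library other than treated replicate 1 and under quantile normalization. Cebpa fell by 0.94 (limma adjusted p = 0.026) from 144 ± 34.3, and that call was lost without untreated replicate 2, untreated replicate 3 or treated replicate 3. The corepressor Tle3 rose by 1.06.

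Among 16 lipolysis genes 2 were higher (12.5%) and 7 lower (43.8%), with a median of -0.38. The lower count was 2 without untreated replicate 2 and 4 without treated replicate 1. It was 3 without treated replicate 2 or 3 or untreated replicate 3. G0s2, which encodes an inhibitor of adipose triglyceride lipase, had 549.35, 963.10 and 801.83 FPKM untreated and 108.21, 175.35 and 169.97 treated, each treated value under each untreated one (-2.34 ± 0.27, limma adjusted p = 0.0018). The control cells held a mean of 50.1 and differed by -0.10, and the responses differed by -2.23 (called). Pnpla2, the lipase itself, was not called, with a mean of 809 untreated and 709 treated. Its coactivator Abhd5 rose by 0.55 and the droplet coat protein Plin2 by 1.13, whereas hormone-sensitive lipase (Lipe) fell by 0.63 and the monoglyceride lipase Mgll by 0.60. The Lipe call did not hold without any single library other than untreated replicate 1, nor the Mgll call without untreated replicate 2, untreated replicate 3 or treated replicate 3. Abhd5 was not called under quantile normalization. Pnpla3 fell from 51.77, 62.29 and 56.83 to 16.42, 20.07 and 17.91.

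In lipogenesis 4 of 20 were higher (20%) and 5 lower (25%), with a median of -0.21. The lower count was 3 without untreated replicate 2, untreated replicate 3 or treated replicate 3. It was 9 with the replicate block and 10 under quantile normalization. Fatty acid synthase (Fasn) fell by 0.88 from 878.89, 1078.90 and 917.66 to 493.12, 538.47 and 528.93, and acetyl-CoA carboxylase (Acaca) fell by 0.62, a call lost without any single library other than treated replicate 1. Lpin1, the phosphatidate phosphatase, rose by 2.04, and the SREBP-retaining protein Insig1 rose by 0.97. The list for fatty acid oxidation gave 5 rising and 3 falling members out of 27, a called share of 29.6% near the 27.6% of all tested genes, with a median of -0.05; 1 fell without untreated replicate 2, untreated replicate 3 or treated replicate 3, and 12 fell under quantile normalization. Pdk4, which blocks pyruvate oxidation, rose by 1.49, Ucp2 by 1.32 and Cpt1a by 0.85, while Cpt2 fell by 0.67.

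Glucose uptake and glycolysis genes gave 7 higher (22.6%) and 6 lower (19.4%) of 31, with a median of 0.20. The higher count was 11 with the block, and the lower count was 2 without untreated replicate 2 and 3 without untreated or treated replicate 3. The basal glucose transporter Slc2a1 went from 32.53, 43.28 and 39.74 FPKM to 122.75, 160.61 and 165.69, a rise of 1.93, and hexokinase 2 (Hk2) rose by 1.71. The insulin-responsive transporter Slc2a4, at a mean of 5.17, fell by 0.55, a call lost without untreated replicate 2, untreated replicate 3 or treated replicate 3. In the insulin and FOXO list 5 rose and 5 fell of 27, or 18.5% each way, against 14.1% and 13.6% of all tested genes. The falling count was 3 without untreated replicate 2, untreated replicate 3 or treated replicate 3. Irs2, the insulin receptor substrate and a known CREB target, had 7.98, 11.98 and 10.81 untreated and 91.43, 132.97 and 132.96 treated, with no overlap (3.41 ± 0.20, limma adjusted p = 1.3e-04). The control response of Irs2 was 0.28, and the difference of responses was 3.13 (called). Sesn1 fell by 1.27, the PI3 kinase regulatory subunit Pik3r1 by 1.20 and the Rab regulator Tbc1d4 by 0.92. Ppp1r3c, a glycogen-targeting subunit, fell by 0.41 in NFIA cells and rose by 0.91 in control cells, where its mean was 1.02 untreated; its NFIA call was lost without untreated replicate 2 or treated replicate 3.

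Nfia itself was higher with forskolin. It had 3585.00, 3255.79 and 3188.95 FPKM untreated and 9875.56, 10447.70 and 9232.17 treated (1.56 ± 0.19, limma adjusted p = 0.0023), and without a filter on low values the adjusted p was 0.083. The introduced and the native transcript share the gene and cannot be told apart in these values. Among the other NFI genes Nfic fell by 0.86 and Nfix by 0.91, and Nfib gave -0.22 and was not called.

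Clock genes were called in 14 of 20, with 10 higher (50%) and 4 lower (20%) and a median of 0.49. Per1, a CREB-induced clock repressor, had 41.10, 40.88 and 37.54 FPKM untreated and 83.04, 88.05 and 90.62 treated, a rise of 1.11. Per2 rose by 1.47 and Arntl, the BMAL1 gene, by 1.26. Nfil3, a repressor of D-box genes, went from 67.93, 73.84 and 68.87 to 320.16, 382.08 and 375.49, a rise of 2.34, while the D-box activators Tef and Dbp fell by 1.31 and 0.73. The Dbp call was lost without any single library other than untreated replicate 1. Per3 fell by 0.97 and Bhlhe41 by 1.28, the latter against a rise of 1.34 for its relative Bhlhe40. In control cells 3 of 18 were higher and 0 lower.

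Among C/EBP factors the early members Cebpb and Cebpd varied strongly between replicates. Cebpb had 28.08, 104.16 and 59.66 FPKM untreated and 64.47, 176.58 and 234.73 treated, with overlapping groups (1.30 ± 0.61, limma adjusted p = 0.17). Within each replicate number it was higher with forskolin, by 1.17, 0.76 and 1.96, and with the replicate block its adjusted p was 0.018. Cebpd had 16.17, 43.04 and 33.33 untreated and 45.37, 88.34 and 110.07 treated, with no overlap (1.38 ± 0.44, limma adjusted p = 0.060, and 0.0045 with the block). In the KLF list 6 of 12 were higher (50%) and 2 lower (16.7%), with a median of 0.34, and Klf4 led with a rise of 2.48. Without any library other than untreated replicate 1, 0 KLF genes were lower.

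Among secreted factors more members were called higher than lower. Of 27 growth factors and hormones 13 were higher (48.1%) and 4 lower (14.8%), with a median of 0.57. Of 23 cytokines, chemokines and prostaglandin genes 13 were higher (56.5%) and 2 lower (8.7%), with a median of 0.67. The lower counts were 2 and 1 without untreated replicate 2 or 3. Epiregulin (Ereg), an EGF receptor ligand, went from 1.79, 1.48 and 1.63 FPKM to 24.99, 20.43 and 21.45, a rise of 3.14. Amphiregulin (Areg) had 0.83, 1.74 and 1.57 untreated and 9.62, 16.65 and 14.69 treated. Inhba and Nrg1 each rose by 1.99 and Fgf10 by 1.66, while Bmp4 fell by 0.72. Among the inflammatory genes Cxcl1 rose by 2.46, Il11 by 2.09, Ptgs2 by 2.07, Clcf1 by 2.06 and Il6 by 1.77. Il6 passed the filter only through the treated libraries, which fixed the direction of its call, with 0.26, 0.23 and 0.17 untreated and 3.23, 3.33 and 2.89 treated. Several of these also rose in the control cells: Tnfsf11 by 1.94 there and 1.58 in NFIA cells, Cxcl5 by 1.86 and 1.44, and Vegfa by 0.79 and 0.58. The interaction of these 3 genes, at -0.35, -0.43 and -0.21, was not called. The NFIA call of Vegfa was lost under quantile normalization and without untreated replicate 3, treated replicate 2 or treated replicate 3.

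In the chaperone and stress lists more members were called higher than lower, and many were not called. Of 31 heat shock proteins and co-chaperones 14 were higher (45.2%) and 1 lower (3.23%), with a median of 0.33. Under quantile normalization 8 were higher. Hspa1b, an inducible HSP70 gene, had 9.49, 14.99 and 13.07 FPKM untreated and 185.65, 304.26 and 315.70 treated, with no overlap (4.30 ± 0.25, limma adjusted p = 1.3e-04), and in control cells it differed by -0.03. Dnajb1 rose by 2.68 and Hsph1 by 2.59. Hspa1b has a near-identical copy, so its reads may be divided between the 2 genes. Of 34 ATF4 and unfolded protein response genes 17 were higher (50%) and 0 lower, with a median of 0.52. With the replicate block 26 were higher. The amino acid transporter subunits Slc7a5 and Slc3a2 rose by 2.43 and 1.75, Ppp1r15a by 2.12, Atf4 by 1.56 and Hspa5, the ER chaperone BiP, by 1.53. Trib3 and Chac1, targets of ATF4, were not called in the NFIA cells (both were higher with the block) and fell in control cells by 1.23 and 1.19. Of 25 oxidative stress genes 8 were higher (32%) and 2 lower (8%), with a median of 0.32, and 14 were higher with the block. Gadd45g (3.08), Srxn1 (2.05), Hmox1 (1.86) and Gclc (1.69) led the list.

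The muscle programme showed no call among contractile genes. Of 38 tested, limma called 0 higher and 0 lower (unadjusted p under 0.05 for 1 in each direction), with a median of 0.01. Skeletal alpha-actin (Acta1) had means of 542 and 611 FPKM, desmin (Des) 156 and 156, and myogenin (Myog) 150 and 145, the last a difference of -0.02 (limma adjusted p = 0.97). Among 16 myogenic regulators Id2, an inhibitor of bHLH factors, rose by 2.14, Mef2d rose by 0.98 and limma called 0 lower (4 with the block, and 2 at an unadjusted p under 0.05). The housekeeping list, a check on scaling, had a median of 0.27 over 14 genes. Actb and Tfrc were called higher, a share of 14.3% near the 14.1% of all tested genes. Neither call held under quantile normalization or without untreated or treated replicate 2 or 3. With the block 7 were higher and 1 lower.

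Genes known as targets of SRF, YAP or TGF-beta rose more often than they fell, 14 higher (53.8%) and 5 lower (19.2%) of 26. The list median was 0.53. In control cells limma called 0 higher and 4 lower, with 1 and 7 at an unadjusted p under 0.05. The lower count in NFIA cells was 1 without untreated replicate 3, 2 without untreated replicate 2 and 3 without treated replicate 2 or 3. Cyr61, a matricellular YAP target, went from 13.02, 17.90 and 15.64 FPKM to 211.71, 273.44 and 281.94 (3.96 ± 0.16, limma adjusted p = 4.1e-05). Its close relative Ctgf went the other way by 0.61, at low levels of 3.49 and 1.95, and its call was lost without untreated replicate 2 or 3 or treated replicate 2. Thbs1, an extracellular glycoprotein, had 41.08, 37.10 and 33.91 untreated and 145.65, 145.63 and 152.58 treated, a rise of 1.96. In extracellular matrix 11 of 37 rose (29.7%) and 1 fell (2.7%), with a median of 0.20, Spp1 at 1.26 and Col12a1 at 1.25. The rising count was 6 without untreated replicate 2 or treated replicate 3 and 7 without untreated replicate 3. The cell cycle list gave 5 higher and 5 lower of 38 (13.2% each way), shares near the 14.1% and 13.6% of all tested genes. The list for WNT and Notch gave 2 higher (9.52%) and 3 lower (14.3%) of 21, with Fzd4 lower by 1.42. Cholesterol synthesis gave 5 higher (22.7%) and 3 lower (13.6%) of 22, and interferon 0 and 4 (44.4%) of 9. Without untreated replicate 2 the lower counts were 0 in cell cycle, 0 in cholesterol synthesis and 2 in interferon, and with the block cholesterol synthesis had 8 lower.

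**Figure D4:**
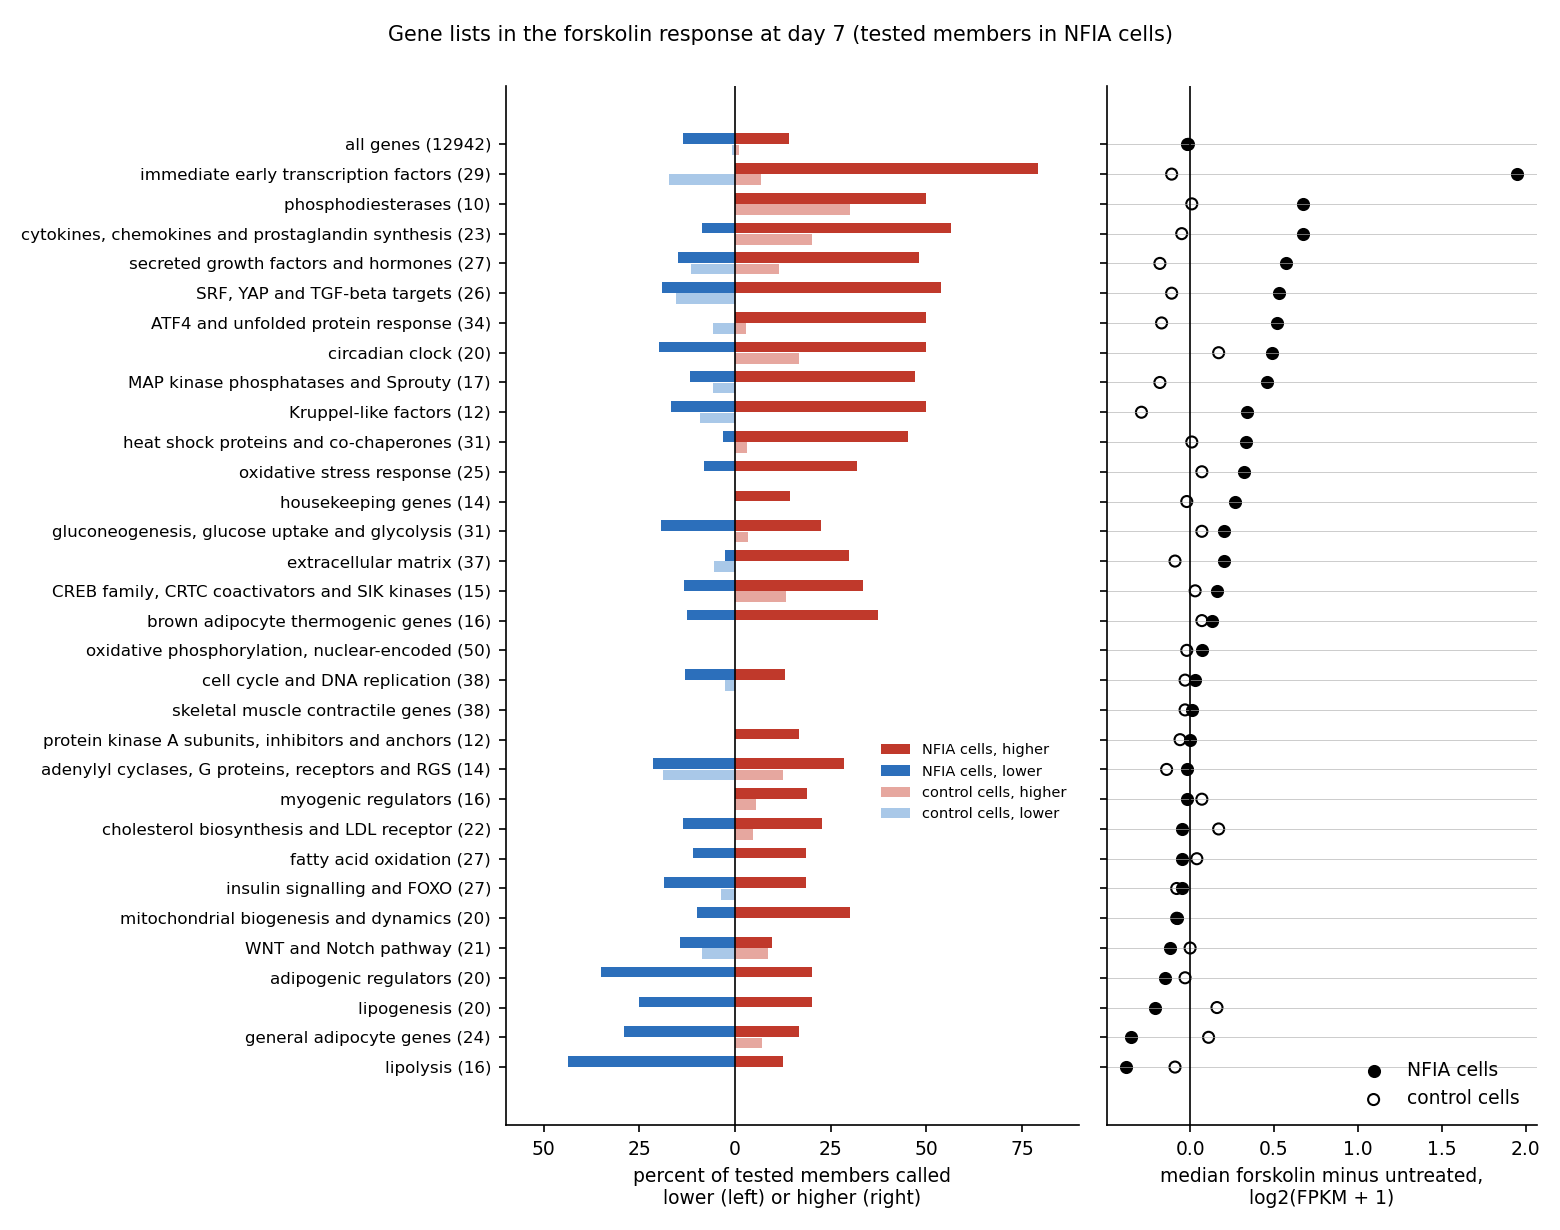
Left, percent of the tested members of each gene list of at least 10 tested members called higher (to the right) or lower (to the left) with forskolin in NFIA cells (dark bars) and control cells (pale bars); right, the list median in log2(FPKM + 1), filled for NFIA and open for control cells. Immediate early factors have 23 of 29 members higher, and contractile and oxidative phosphorylation genes have no bar in the NFIA cells.

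Outside the lists, Fgl2, which encodes a fibrinogen-like secreted protein, was nearly absent before treatment. It had 0.06, 0.04 and 0.05 FPKM untreated and 39.17, 40.66 and 41.90 treated, with no overlap (5.31 ± 0.08, limma adjusted p = 2.6e-06). Fgl2 passed the filter only through the treated libraries, which fixed the direction of its call. The phosphatase Ptp4a1 had 22.05, 15.19 and 15.43 untreated and 388.20, 373.51 and 348.92 treated (4.34 ± 0.15, limma adjusted p = 3.6e-05). Alkaline phosphatase (Alpl) went from 3.66, 8.44 and 10.80 to 196.07, 144.21 and 134.46, and replicate 1 was the lowest untreated and the highest treated library. Vdr, the vitamin D receptor, had 34.39, 48.29 and 47.14 untreated and 520.37, 660.98 and 697.52 treated (3.83 ± 0.18), and it also rose by 2.79 in control cells. The protease inhibitor Slpi rose by 3.86.

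Falling genes were smaller in size. Bmf, a BH3-only member of the BCL2 family, had 5.0, 7.12 and 8.23 FPKM untreated and 0.53, 0.51 and 1.50 treated, with no overlap (-2.09 ± 0.25, limma adjusted p = 0.0020). The adaptor Apbb2 fell by 2.15, the MAX-binding repressor Mxd4 by 1.82, the Notch glycosyltransferase Lfng by 1.82 and the peptide hormone apelin (Apln) by 1.80.

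Of 1233 pseudogenes tested, 203 were called higher (16.5%) and 28 lower (2.27%), against 14.1% and 13.6% over all tested genes. The large rises of Gm5582 (3.98) and Gm13363 (3.92) are uncertain, because their transcripts are 99.6% and 99.4% identical to Ptp4a1 over 522 bases and reads of 1 could be counted for another. Likewise Gm11652 (2.53) is 96.2% identical to Bzw1, and Actg-ps1 is 98.3% identical to Actg1.

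The response of the control cells was smaller in number. In them 239 of 13235 tested genes were called (1.81%), 129 higher (0.975%) and 110 lower (0.831%), and 1632 had an unadjusted p under 0.05. That count rests on few libraries: it was 16 without untreated control replicate 2. The test of the difference itself, the NFIA by forskolin interaction, called 2793 of 14034 genes (19.9%), 1478 with a more positive response in NFIA cells (10.5%) and 1315 with a more negative one (9.37%). Of the 491 genes that rose by at least 2-fold in NFIA cells, 450 had a called positive interaction and 1 a negative one. Those 491 had a median of 1.57 in NFIA cells, and the 421 of them tested in control cells had a median of 0.06 there. Of the 158 that fell by as much, 140 had a called negative interaction, with medians of -1.21 and -0.06. The interaction contains the NFIA response that chose these genes, so these interaction counts and the NFIA medians follow largely from that choice and are given for size only.

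Genes called in both cell kinds were counted among the 12275 tested in both. Of 117 genes that rose in control cells 71 (60.7%) also rose in NFIA cells, where they made up 4.22% of 1682 rising genes. Of 88 that fell in control cells 21 (23.9%) fell and 24 (27.3%) rose in NFIA cells. As a base for these shares, 1682 of all 12275 genes rose and 1636 fell in NFIA cells. Across all 12275 genes the 2 responses had a Pearson r of 0.11. Genes are not independent replicates, and the libraries of both cell kinds share the years in their table headers. The core genes that rose in both, with their NFIA and control differences, included Vdr (3.83 and 2.79), Sik1 (2.74 and 1.03), Pde4b (2.41 and 1.43), Crem (2.34 and 1.41) and Cxcl1 (2.46 and 1.67).

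Egr1, Atf3, Cyr61, Thbs1 and Klf4 were among the genes called in opposite directions. Egr1 fell in control cells from 28.15, 30.42 and 27.67 FPKM to 9.03, 9.63 and 9.89 while it rose in the NFIA cells, a difference between responses of 3.80 ± 0.11 (limma interaction adjusted p = 2.4e-08). Cyr61 fell in control cells from a mean of 94.1 to 26.6, a difference of -1.79, so that the treated NFIA cells were above the level of untreated control cells. Thbs1 fell there by 1.63 from 208, Klf4 by 0.95 and Atf3 by 0.88, with limma adjusted p in control cells of 0.0045, 0.037 and 0.028. The control calls were not followed gene by gene when libraries were left out. Of all 239 control calls, 15 were kept without untreated control replicate 2. In the opposite sense Cachd1, which encodes a calcium channel-associated protein, fell by 1.17 in NFIA cells and rose by 1.07 in control cells, where it was at 1.50 untreated.

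**Figure D5:**
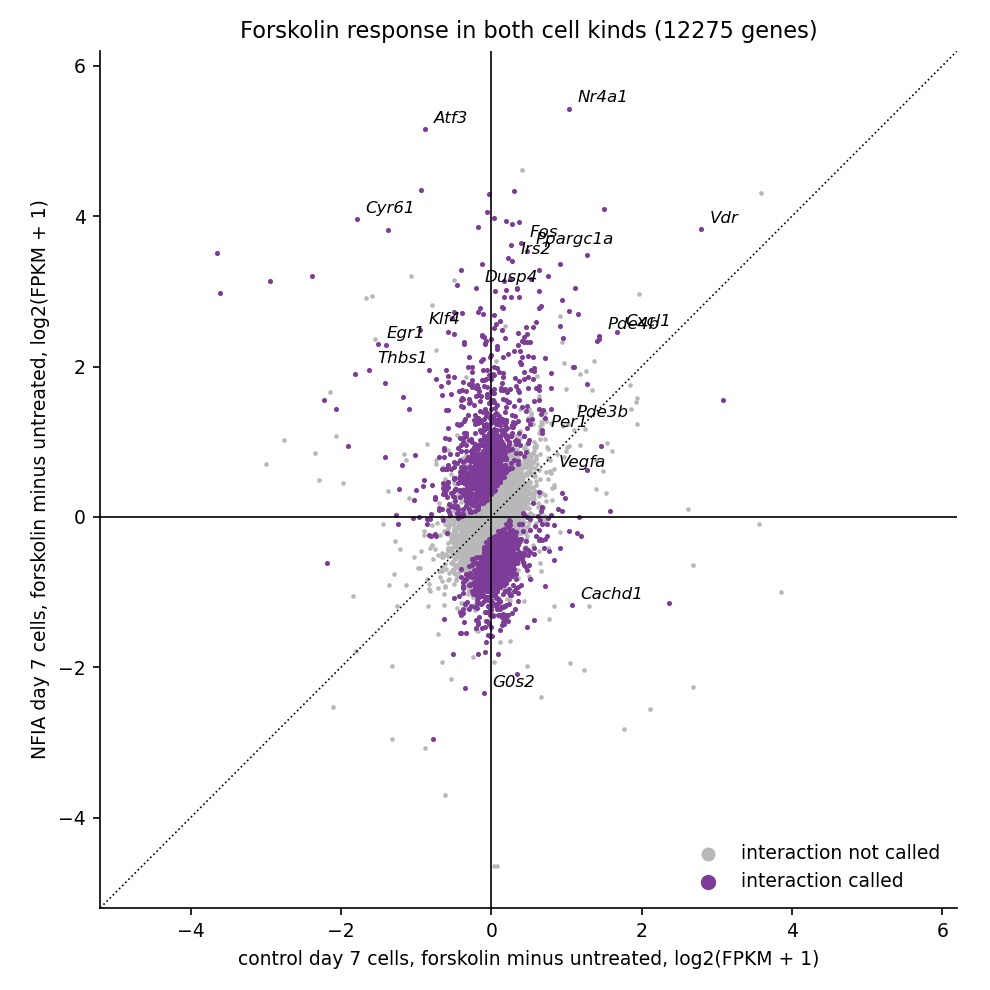
Response to forskolin in NFIA cells (y axis) against control cells (x axis), both in log2(FPKM + 1), for 12275 genes tested in both; purple points have a called interaction, grey ones do not, and the dotted line marks equal responses. Vdr and Pde4b lie at upper right, and Egr1, Cyr61 and Thbs1 at upper left.

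Markers of other cell types were summed over each library. Smooth muscle and pericyte markers summed to 375 to 457 FPKM untreated and 432 to 522 treated, and adipocyte progenitor markers 596 to 728 untreated and 588 to 799 treated. Of the immune markers, Ptprc and Emr1 were at 0, and the tested pair Cd68 and Cd14 both rose (the Cd68 call was lost without untreated replicate 3), with a list sum of 13.1 to 16.6 FPKM untreated and 21.9 to 29.5 treated. None of 8 endothelial markers was tested: their sum was 0.45 to 0.47 untreated and 1.46 to 1.58 treated, with Kdr at means of 0.07 and 1.16 and Cdh5 and Pecam1 at or under 0.20 in each library. Erythroid markers summed to 1.28 to 2.97 untreated and 3.59 to 6.16 treated with Hbb-b1 at 0. The part of these markers in the response was not tested.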

How the data were processed

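The authors deposited 1 table of FPKM per library; TopHat and Cufflinks with the mouse build mm9 are listed per the submitters' processing notes, without versions, and the annotation is not given in the sources used here. Libraries were poly(A)-selected and strand-specific, per the labels' protocols. Each table had 37305 entries; 264 repeats of a gene were merged, leaving 37041. Read totals are not known, so FPKM sums are given instead.

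Log2(FPKM + 1) was tested with limma 3.58.1 in R 4.3.3 (trend, two-sided, Benjamini-Hochberg) over genes at FPKM 1 or more in 3 or more of the 6 libraries; the interaction used 12 libraries. The fit was tested on simulated data. The deviations of same-numbered libraries correlated at 0.531, 0.184 and 0.344 in the NFIA comparison and 0.375, 0.0307 and 0.154 in control cells; those of differently numbered NFIA replicates 2 and 3 gave 0.232 and 0.204, above the 0.184 of pair 2. A replicate block, which rests on taking the libraries without a number in their title as replicate 1, was an alternative, quoted where it changed a call. Other alternatives were scaling, pseudocount, filters, the year in the table header and left-out libraries.

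Named genes were key genes, up to 6 called and 3 uncalled members of each list, and the 15 largest changes in each direction outside the lists and in the interaction; other members beside a list count were chosen after their values were seen. Members and lists were chosen with earlier results of these data known. Promoters came from RefSeq (GRCm38.p6) by symbol, 8970 of 12942 genes matching; biotypes came from GENCODE by gene ID (32488 matched), and pseudogenes were compared with blastn 2.17.0. Replicates are 3 per group. A few genes are not reported here.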

Additional observations from a re-analysis of the deposited data

Results flagged for a closer look

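The response to forskolin differed between NFIA and control cells, by the limma interaction term, for 2793 of 14034 genes (19.9%). Of the 316 genes named by rule that were tested in it, 182 were called. That rule took the largest called changes and interactions of these same data, so the count of 182 follows largely from the choice. The groups of 3 libraries are too small for a test of single outlying libraries.

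Named genes called in both cell kinds in opposite directions are given here by the NFIA response minus the control response (log2(FPKM + 1)). Cyr61 (5.75) and Thbs1 (3.59), which encode secreted or matrix proteins, and the transcription factors Atf3 (6.04), Egr1 (3.80) and Klf4 (3.43) rose in NFIA cells and fell in control cells. Cachd1 had the opposite sign (-2.24). The control calls behind these signs rest on few libraries: 15 of all 239 were kept without untreated control replicate 2. The small RNA snoU6-77 gave 7.17, with 0.00 to 11.40 FPKM in untreated NFIA libraries, 39.66 to 98.56 in treated ones and 0 in all treated control libraries; its call in NFIA cells was lost when single libraries were left out.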

How the results depend on the processing

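The NFIA response called 3578 genes. The count was 5494 with the replicate block and 6036 with the header year as a term. It was 649 with a 2-fold minimum and 1824 to 3374 with each library left out. The control response (239) had 503 calls with the replicate block, 569 with the spread of all 18 C2C12 libraries, 371 with numbered libraries only, 126 without a filter and 16 to 133 with a library left out. The interaction (2793) had 5182 with the replicate block and 2126 to 2744 with a library left out. List members called (284 of 713 tested) ranged from 204 to 278 with a library left out and reached 380 with the block. Counting TGACG only before the start gave 41.1% of genes called higher, 28.5% of those called lower and 30.8% of those not called. No called named gene changed sign, and the signs of list members not called were not followed. Of 210 named genes called, 38 lost the call in at least 1 alternative other than the 2-fold minimum, 37 of them when a library was left out. The named genes were chosen partly for large differences in these data, so these counts do not describe all calls. Among the genes given, the replicate block added the calls of Cebpb, Cebpd, Cidea, Id1 (lower), Chac1, Egr2 and Trib3 and ended those of Rapgef3, Aqp7 and snoU6-77; it changed no other. Why these counts moved was not tested. Without read counts, the precision of low FPKM values is unknown.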

Other observations

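Remaining lists held few tested members in the NFIA response. Smooth muscle and pericyte markers had 1 higher and 1 lower of 6, or 16.7% each way, against 14.1% and 13.6% of all tested genes. Adipocyte progenitor markers had 1 higher (20%) and 2 lower (40%) of 5. Of 2 epidermis markers tested 1 was lower, Trp63, and its call was lost when single libraries were left out. Of 2 nerve and glia markers tested limma called 0.

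The mitochondrial mRNAs were not described: of 13, between 0 and 5 were listed at 0 in an NFIA day 7 library, most in replicate 1 of each group (4 untreated and 5 treated).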
